A study of Saccharomyces cerevisiae and Schizosaccharomyces pombe with 8 samples.

Results

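Wild-type fission yeast, Schizosaccharomyces pombe, was compared between minimal and rich medium through the 3′ ends of its polyadenylated RNA. The comparison is between 2 of the 8 libraries of the series: wild type in minimal medium (1 library) and wild type in rich medium (1 library). They were chosen by their labels, which give the genotype as wild type and the medium as minimal or rich, and give no strain, no recipe and no growth stage. Cleavage sites were called and ranked on these 2 libraries alone. The other S. pombe libraries, a PCF11 mutant in minimal medium and a PAB2 mutant in rich medium (1 library each), were used only where values with sites ranked on all 4 S. pombe libraries are given. The S. cerevisiae wild type, with 2 libraries in minimal and 2 in rich medium, was used only as a scale of the spread between libraries of 1 medium. The series title names alternative polyadenylation in budding and fission yeast as its subject.

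With 1 library per medium there is no replicate, so no difference given here has a replicate check and no p-value was computed. Differences between the media, between cultures and between library preparations cannot be told apart. A gene was counted as different when its reads differed at least 2-fold, and intervals cover counting error only.

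The 3′ end of a messenger RNA is made by cleavage of the transcript and addition of a poly(A) tail. Many yeast genes carry several cleavage sites, and the site chosen sets the length of the 3′ untranslated region and which regulatory elements it holds. Minimal medium makes cells synthesize most amino acids and nucleotides themselves, and it usually also differs from rich medium in its supply of phosphate, metals and vitamins.

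The cleavage sites of the zinc genes with the largest differences in reads, and both sites of 4 genes among those with large differences in site choice, are shown first as 30-base windows of the transcribed strand. The capital letter with 8 bases after it is the deposited position taken as the cleavage position in each window, and a GTA downstream of it is also in capitals. The sequences come from RefSeq assembly ASM294v3, and the zinc genes were picked for display after their values were seen. Sites of adh1 at III:1592868-1592897 (+), adh1AS at III:1590017-1590046 (-), adh4 at I:156370-156399 (-) and zrt1 at II:3609309-3609338 (+) are the most used of each gene.
adh1 most used site: atattagaatcccatcctttaAtttctttc
adh1AS most used site: ataaaagaatcattactaggtAtatacaaa
adh4 most used site: aattttggattttttttattaAttatataa
zrt1 most used site: ataattgtgtcattttcactgAtttactat

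The next windows belong to 4 of the genes with a large difference in site choice, chosen for display after their values were seen. The gene SPBC8D2.18c has windows at II:1391590-1391619 and II:1391459-1391488 (-), and rpl902 has windows at III:90369-90398 and III:90533-90562 (+). The noncoding gene mamRNA has windows at II:1308396-1308425 and II:1308495-1308524 (+), and nrm1 has windows at II:4287273-4287302 and II:4288025-4288054 (+).
SPBC8D2.18c proximal site: actttaaaaatgtttcagcctCtttttttt
SPBC8D2.18c distal site: atgtttctttctttgcatagaAtagcaatt
rpl902 proximal site: aatgaaaatggtttgttggcgAtttcagac
rpl902 distal site: taagattatcctgtttcctccActagatat
mamRNA proximal site: agtgtactaacttcttttttaGgtGTAttt
mamRNA distal site: aataatgtgtgtttttcgtgtAgctactcc
nrm1 proximal site: taaaattattatcgctggtaaAgccatcct
nrm1 distal site: gaatcaactgttaagttccatGgtttgttg

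The minimal medium library held 2702105 reads and the rich medium library 3647664. Reads lay mostly past the stop codon of coding genes, with 94.5% of nuclear reads in minimal and 94.7% in rich medium. Long noncoding RNA genes took 2.44% in minimal and 2.19% in rich medium, coding exons 1.51% and 1.59%, and antisense positions outside annotated noncoding genes 0.239% and 0.238% in the same order of media. Of 12606 annotated genes 9729 had a read, and the 3480 with at least 100 reads summed over both libraries were compared. Because the minimum applies to the sum, a gene nearly silent in 1 medium was compared whenever the other medium supplied the reads, and the counts below include such genes.

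Gene reads were similar in most genes and very different in a small group led by zinc-regulated loci. In minimal medium 102 genes were at least 2-fold higher (2.93% of the genes compared) and 67 were at least 2-fold lower (1.93%). Requiring 50 reads in each library left 78 higher and 32 lower. The median log2 ratio, minimal over rich, was -0.01, and the middle 90% of genes lay between -0.69 and 0.80. Log2 CPM values (reads scaled to library size with TMM factors) correlated between the libraries at r = 0.958 across 3480 genes, which are not independent replicates. Of the 3195 coding genes compared, 84 were higher and 37 lower. Of the 261 long noncoding RNA genes, 16 were higher and 29 lower, which is 6.13% and 11.1% of them.

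**Figure D1:**
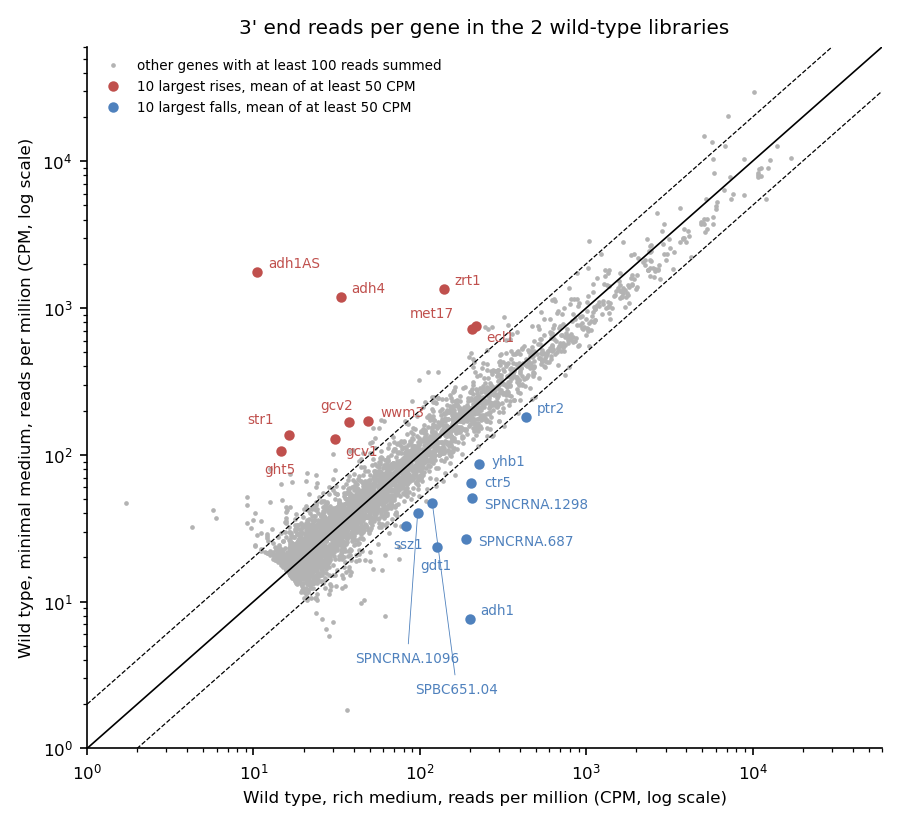
Each point is a gene with at least 100 reads summed, at its CPM in minimal medium (vertical, log scale) and in rich medium (horizontal, log scale), with a solid line at equal values and dashed lines at 2-fold. The 10 largest rises with a mean of at least 50 CPM are in red and the 10 largest falls in blue, with adh1AS, adh4 and zrt1 far above the lines and adh1 far below.

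The zinc genes stood furthest apart. Fission yeast Zrt1 takes up zinc, Adh4 and Adh1 are alcohol dehydrogenases, and Loz1 is a zinc-responsive repressor known to act on zrt1, adh4 and adh1AS when zinc is plentiful. The antisense noncoding gene adh1AS is transcribed across adh1 and is known in this species to lower adh1 expression. The gene adh1AS (III:1590025-1593983, -) had 4829 reads in minimal medium, against 37 in rich medium, a log2 ratio of 7.34, which was 5.62 when coding genes took reads to 250 nt past their ends. The gene adh1 (III:1591292-1592889, +) had 21 reads in minimal medium, against 702 in rich medium, a log2 ratio of -4.65. These were the largest rise and the largest fall among genes with a mean of at least 50 CPM.

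At adh1 both transcripts could be followed on their own strands, since the files give the strand of each read. The 2 annotated transcripts overlap by 1598 nt. The site 478 nt past the adh1 stop codon held 4 reads in minimal medium and 607 in rich medium. On the opposite strand the most used adh1AS site, at its annotated end, held 2208 reads in minimal medium and 12 in rich medium, and the next site, at position 1590602, held 1234 and 8. Both libraries therefore had reads on both strands, and the strand that held most of them differed.

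**Figure D2:**
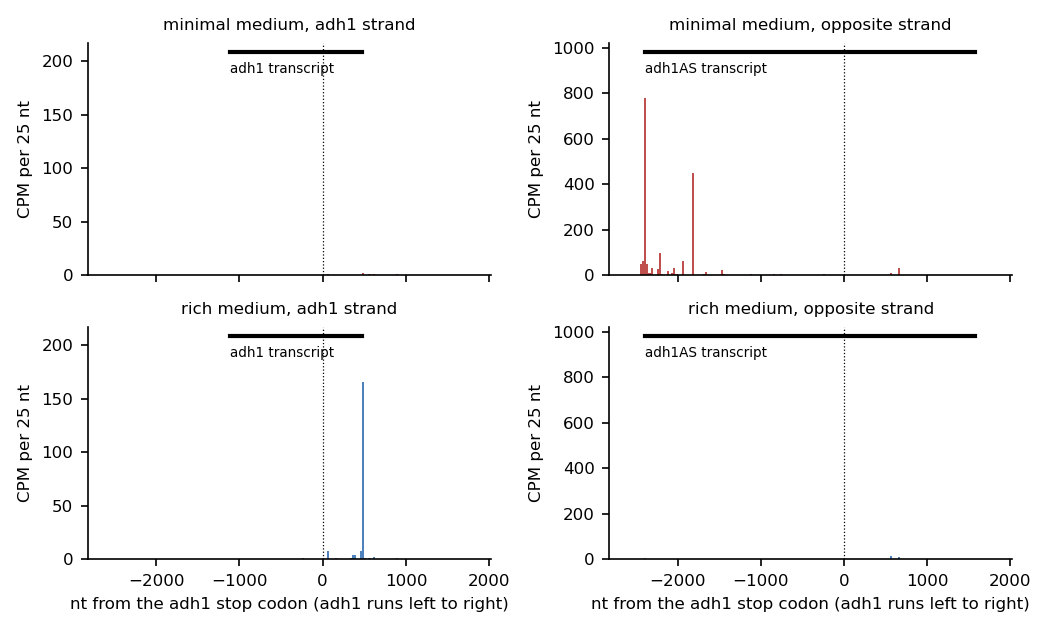
CPM per 25 nt against the distance from the adh1 stop codon, on the adh1 strand (left) and on the opposite strand (right), in minimal medium (top, red) and rich medium (bottom, blue), with the vertical scale shared within each column. The annotated transcripts are black bars; minimal medium shows the antisense ends and rich medium the adh1 end, with 4829 and 37 adh1AS reads.

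The other zinc genes were also mostly higher in minimal medium. The gene adh4 (I:156430-157932, -) had 3254 reads in minimal medium and 118 in rich medium, a log2 ratio of 5.12. The gene zrt1 (II:3607177-3609330, +) had 3678 reads in minimal medium and 492 in rich medium, a ratio of 3.25. Reads of loz1 numbered 132 in minimal medium and 44 in rich medium, a ratio of 1.91. Only zhf1, for a zinc transporter of the endoplasmic reticulum, was near equal among the 5 zinc genes, with 1433 reads in minimal medium, 2208 in rich medium and a ratio of -0.27. Thus 3 of 5 were at least 2-fold higher and 1 lower, where 2.93% and 1.93% of all genes compared were. The list median was 1.91 beside -0.01 for all genes compared. The list was chosen with earlier results of these data known, so setting it beside all genes only describes it. The lower gene, adh1, reached the minimum of reads through rich medium, and loz1, counted as higher, reached it through minimal medium. In the lists below some called genes, among them tgp1, inv1 and ctr4, also reached it through the medium where they were higher. Their counts beside all genes are likewise only a description.

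All compared phosphate genes had ratios above 0. Of 7 members 6 were compared, 3 were at least 2-fold higher (2.93% of all genes) and 0 lower (1.93%), and the median ratio was 1.02. The largest ratio belonged to tgp1, a transporter of glycerophosphodiesters, with 142 reads in minimal medium and 32 in rich medium (2.47). The acid phosphatase gene pho1 had 2030 and 862 reads in minimal and rich medium (1.58), and vtc4, for a subunit of the polyphosphate polymerase, had 167 and 83 (1.35). The phosphate transporter gene pho84 had 2074 reads in minimal medium and 1644 in rich medium (0.68).

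Noncoding genes beside the phosphate genes are known to repress them in this species, and they were looked up after the values above were seen. The gene nc-tgp1 had 170 reads in minimal medium and 182 in rich medium, a log2 ratio of 0.25. The gene ncRNA.1343, annotated as a bidirectional partner of nc-tgp1 without function, had 28 reads in minimal medium and 162 in rich medium (-2.14). The gene prt2 had 763 reads in minimal medium and 563 in rich medium (0.79).

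Most compared hexose transport and glucose-repressed genes were also higher in minimal medium. Of 13 members 6 were compared, with 4 at least 2-fold higher (2.93% of all genes), 0 lower (1.93%) and a median ratio of 1.70. A member with few reads could enter only if 1 medium supplied them, so these values do not describe the whole list. The summed level of the 13 members was 1210 CPM in minimal medium and 1055 CPM in rich medium, a log2 ratio of 0.20. The hexose transporter gene ght5 (III:212313-214376, +) had 291 reads in minimal medium and 51 in rich medium (2.84), inv1, for invertase, had 102 and 21 (2.58), and gld1, for glycerol dehydrogenase, had 180 and 60 (1.92). The hexose transporter gene ght2 had 293 reads in minimal medium and 134 in rich medium (1.47). The transporter gene ght8 held the most reads of the family, with 2180 in minimal medium and 3284 in rich medium, and its ratio was -0.24.

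Several sulfur amino acid and one-carbon genes were higher, among them some with very many reads. Of 16 sulfur genes compared, 6 were at least 2-fold higher (2.93% of all genes) and 0 lower (1.93%), with a median ratio of 0.58. The gene met17, of homocysteine synthesis (II:465380-467247, +), had 1991 reads in minimal medium and 720 in rich medium (1.82). The S-adenosylmethionine synthetase gene sam1 had 40681 reads in minimal medium and 17991 in rich medium (1.53), sul1, for a sulfate transporter, 421 and 200 (1.42), and met26, for methionine synthase, 36973 and 19943 (1.24).

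The glycine cleavage and one-carbon list split. Of 7 genes, 3 were at least 2-fold higher (2.93% of all genes) and 0 lower (1.93%), with a median of 0.47. The glycine cleavage genes gcv2 and gcv1 had 458 and 351 reads in minimal medium, against 132 and 108 in rich medium, with ratios of 2.14 and 2.04. Serine hydroxymethyltransferase gene shm1 had 56176 reads in minimal medium and 24976 in rich medium (1.52), while gly1, for a threonine aldolase, had 29049 and 59759 (-0.69).

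Other amino acid synthesis genes did not share this direction. Over 7 lists (arginine, histidine, lysine, branched-chain, aromatic, serine with threonine and proline, and glutamate with glutamine), 45 genes were compared. Of these 0 were at least 2-fold higher (2.93% of all genes) and 2 lower (1.93%). Ratios were above 0 for 8 and below 0 for 37, beside 1702 and 1778 of all genes compared. The list medians ran from -0.54 to -0.14. Argininosuccinate synthetase gene arg12 had 90 reads in minimal medium and 271 in rich medium (-1.23), and the branched-chain aminotransferase gene eca39 had 532 and 1364 (-1.01). With scaling to total nuclear reads eca39 was no longer past 2-fold. All 12 purine genes lay within 2-fold, with a median of -0.29, and gua2, for GMP synthesis, had the largest difference, with 465 reads in minimal medium and 1043 in rich medium (-0.81). Of 5 pyrimidine genes 3 were compared, with a median of -0.54.

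Iron and copper genes passed 2-fold in both directions. Of 17 members 10 were compared, with 1 at least 2-fold higher (2.93% of all genes), 2 lower (1.93%) and a median of -0.46. The siderophore transporter gene str1 (II:2704657-2707648, +) had 378 reads in minimal medium and 57 in rich medium (3.06). The copper transporter subunit genes ctr4 and ctr5 were the lower ones, with 22 and 178 reads in minimal medium, against 217 and 714 in rich medium, ratios of -2.89 and -1.65. Siderophore synthesis gene sib2 had 57 reads in minimal medium and 144 in rich medium (-0.97). Several iron uptake genes fell short of 100 reads and were not compared. Among them fip1, the iron permease gene, had 62 reads in minimal medium and 10 in rich medium.

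Stress genes were mixed. Of 18 core stress genes compared, 5 were at least 2-fold higher (2.93% of all genes) and 1 lower (1.93%), with a median of 0.48. The stress-induced nuclear envelope gene ish1 had 206 reads in minimal medium and 74 in rich medium (1.81), hsp104, for a protein disaggregase, 1970 and 895 (1.49), and pyp2, for a tyrosine phosphatase, 642 and 313 (1.38). Glutathione transferase gene gst2 was the lower one, with 65 reads in minimal medium and 261 in rich medium (-1.64). Of 11 genes compared in the chaperone list 0 passed 2-fold in either direction (4.86% of all genes), and the median was -0.27. That list holds neither hsp104 nor the Hsp70 gene ssz1, which was lower in minimal medium (-1.32).

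Ribosomal protein genes had ratios below 0 almost throughout, nearly all within 2-fold. Of 136 compared, 132 had a ratio below 0, 2 were at least 2-fold lower and 0 higher (1.93% and 2.93% of all genes), and the median was -0.40 beside -0.01 for all genes. Their summed level was 278678 CPM in minimal medium and 392365 CPM in rich medium. The lowest was rpl1902 with 15194 reads in minimal medium and 42257 in rich medium (-1.13), followed by rps20 with 58 and 150 (-1.01), and the highest was rpl902 with 2734 and 2587 (0.43). Many ribosomal protein genes have near-identical copies, and how the aligner placed reads that fit both is not given in the sources used here. Of 32 ribosome biogenesis genes 26 had a ratio below 0, none passed 2-fold, and the median was -0.31.

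Energy genes changed little apart from a pair of genes. The gene gpd3, for glyceraldehyde-3-phosphate dehydrogenase, had 81081 reads in minimal medium and 35792 in rich medium (1.53), while tdh1, for the same enzyme, had 34768 and 48818 (-0.14). Within the 14 glycolysis and fermentation genes compared, gpd3 was the 1 higher and adh1 the 1 lower (2.93% and 1.93% of all genes). The median was -0.02. None of the 15 TCA cycle genes (median 0.14) or of the 26 respiratory chain genes (median 0.17) passed 2-fold. Of 16 cleavage and polyadenylation genes compared, 1 was higher and 0 were lower (2.93% and 1.93% of all genes). The higher one was ctf1, with 78 reads in minimal medium and 37 in rich medium (1.41).

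**Figure D3:**
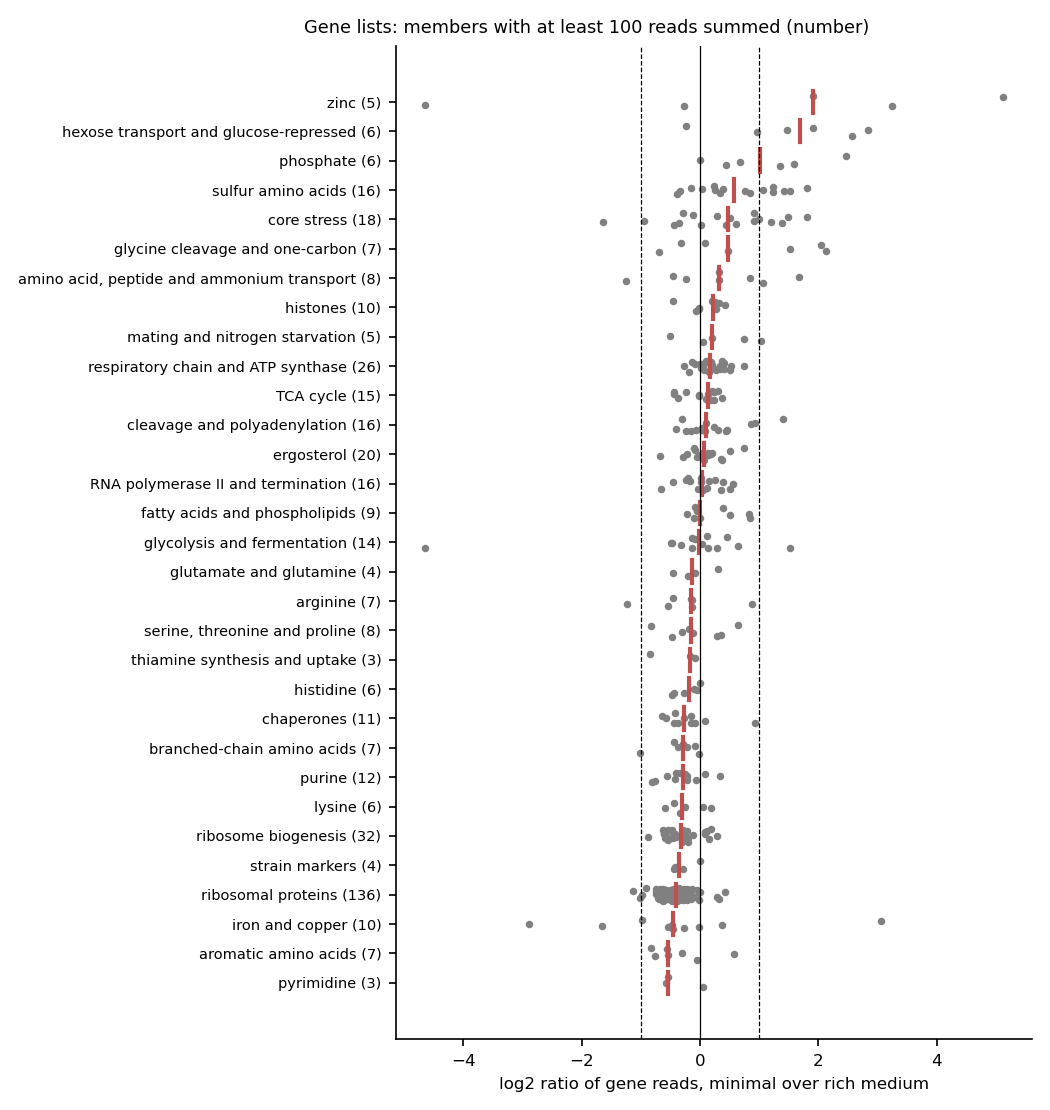
Each grey point is a compared member of a gene list at its log2 ratio of reads, minimal over rich medium (horizontal), with lists ordered by their median (red bar), lists of at least 3 compared members shown, and dashed lines at 2-fold. Zinc, hexose and phosphate lists have the highest medians (1.91, 1.70 and 1.02), and nearly all ribosomal protein genes lie left of 0.

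The remaining named genes fell outside these lists. Among the rises, ecl1, a gene that extends chronological lifespan, had 2080 reads in minimal medium and 762 in rich medium (1.80), and wwm3 had 465 and 170 (1.80). Among the falls, gdt1 had 65 reads in minimal medium and 442 in rich medium (-2.40), yhb1, for nitric oxide dioxygenase, 237 and 799 (-1.40), and ssz1, for a ribosome-associated Hsp70 protein, 90 and 288 (-1.32). The uncharacterized gene SPBC651.04 had 130 reads in minimal medium and 416 in rich medium (-1.32). Peptide transporter gene ptr2 had 500 reads in minimal medium and 1524 in rich medium (-1.26), although amt1, an ammonium transporter gene, and isp5, an amino acid permease gene, were at least 2-fold higher, with 258 against 156 (1.07) and 87 against 34 (1.68). These 3 belong to the transport list, where 8 genes were compared, with 2 at least 2-fold higher (2.93% of all genes) and 1 lower (1.93%).

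Long noncoding genes made up 3 of the 10 largest falls among genes with a mean of at least 50 CPM. The largest rise, adh1AS, was long noncoding too. Of all 3480 genes compared 261 were long noncoding, and their share among genes with that mean was not computed. The gene SPNCRNA.687, which lies wholly opposite cph1, had 73 reads in minimal medium and 662 in rich medium (-2.81), and cph1 itself, for a subunit of a histone deacetylase complex, had 69 and 111 (-0.33). The gene SPNCRNA.1298 had 139 reads in minimal medium and 717 in rich medium (-2.01), and SPCC569.02c on the other strand had 4 and 35. The gene SPNCRNA.1096 had 110 reads in minimal medium and 340 in rich medium (-1.27), and SPCC1884.01 on the other strand had 23 and 26 (0.18).

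The state of the cultures was described with markers of mating type and nitrogen starvation. Of the genes specific to M cells, mam1, for the M-factor transporter, had 64 reads in minimal medium and 71 in rich medium, mam2, for the P-factor receptor, had 17 and 14, and mat1-Mc had 0 in both. Of the genes specific to P cells, map3, for the M-factor receptor, had 63 reads in minimal medium and 39 in rich medium, and map2, for P-factor, had 2 in each. Of the nitrogen starvation genes, ste11 had 14 reads in minimal medium and 10 in rich medium, and mei2 had 24 and 3. Another such marker, isp5, was at least 2-fold higher in minimal medium, as given above (1.68). In the mating and nitrogen starvation list 5 genes were compared, with 1 at least 2-fold higher (2.93% of all genes) and 0 lower (1.93%). The higher one was the P cell gene map3, with a ratio of 1.03, while isp5 was counted in the transport list. The markers named here are a part of the fixed set. The common auxotrophic marker gene ura4 had 4 reads in minimal medium and 2 in rich medium, while leu1, his3 and lys1 each had over 100 in both.

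Site choice was compared within genes at the proximal and the distal of the 2 most used sites, where a site joins positions within 24 nt and holds at least 5% of the gene's reads. Minimal medium favoured distal sites in more genes than it favoured proximal ones. Of 2280 genes whose pair of sites held at least 100 reads in all, 302 moved at least 2-fold toward the distal site in minimal medium (13.2%) and 123 toward the proximal site (5.39%). The ratio of distal over proximal reads was higher in minimal medium in 63.3% of genes, with a median log2 change of 0.24. In the 1244 genes whose pair held at least 100 reads in each library, the counts were 125 and 48, and the median distal share was 56.0% in minimal medium and 52.5% in rich medium. In 81.4% of those genes the share differed by less than 10 percentage points, and in 84 the leading site differed: the distal site led in minimal medium and the proximal in rich medium in 58, and the reverse held in 26.

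The direction depended on how far apart the sites lay. Among 1826 genes with both sites past the stop codon, pairs 51 to 100 nt apart moved toward the distal site in 87 genes and toward the proximal site in 7, of 543, with a median of 0.36. Pairs over 400 nt apart moved toward the distal site in 12 and toward the proximal site in 24, of 143, with a median of -0.28. Pairs 201 to 400 nt apart were near balance, with a median of 0.02 over 211 genes. Across all 1826 genes the log2 spacing and the site change correlated at r = -0.173, a description over genes of the same 2 libraries.

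**Figure D4:**
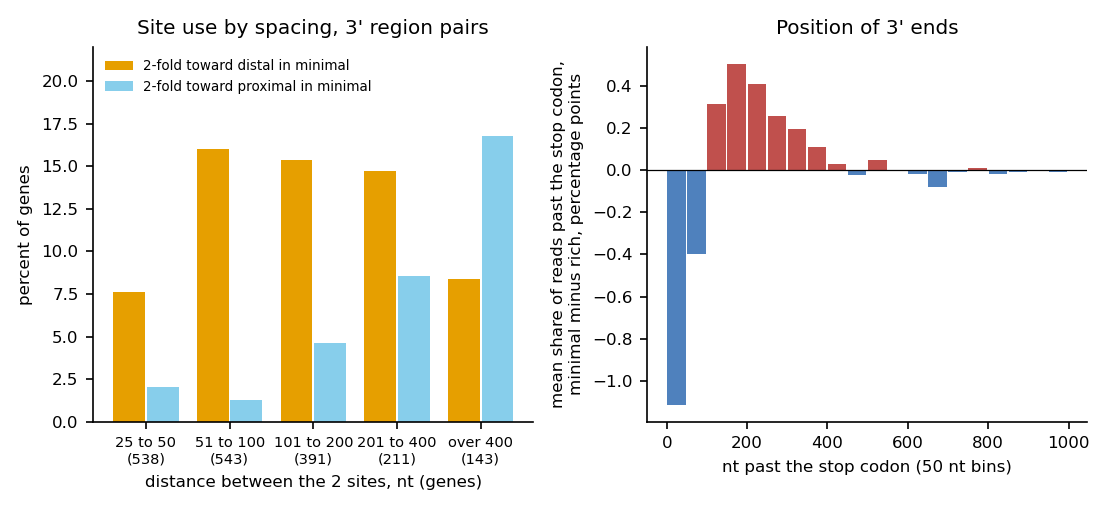
Left, the percent of genes with both sites past the stop codon that moved at least 2-fold toward the distal (orange) or the proximal site (blue) in minimal medium, by the distance between the sites in nt, with the number of genes in brackets; the proximal bar is the higher one only above 400 nt. Right, the mean share of reads in each 50 nt bin past the stop codon, minimal minus rich medium in percentage points, which is -1.11 at 1 to 50 nt and 0.503 at 151 to 200 nt.

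A small shift in the same direction appeared without sites, in reads of the same 2 libraries, so it is not separate support. Over 3690 genes with at least 20 reads beyond the stop codon in each library, the median distance of the read-weighted 3′ end was 191.9 nt for minimal medium and 188.5 nt for rich medium. The median difference within genes was 1.59 nt, and in 63.0% of genes the end lay further in minimal medium. At least 20 nt further in minimal medium were 453 genes and at least 20 nt closer were 380. The mean share of reads 1 to 50 nt past the stop codon was 11.2% in minimal medium and 12.3% in rich medium, and at 151 to 200 nt it was 12.1% and 11.6%.

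The largest shift toward a distal site among genes with at least 100 reads at the pair in each library was in SPBC8D2.18c, for adenosylhomocysteinase, an enzyme of the methionine cycle. In minimal medium its sites 69 and 200 nt past the stop codon held 6137 and 17500 reads, against 12951 and 6937 in rich medium. The distal share was 74.0% in minimal medium (95% Clopper-Pearson interval 73.5% to 74.6%) and 34.9% in rich medium (34.2% to 35.5%). A further site 267 nt past the stop codon held 10571 reads in minimal medium and 3520 in rich medium. With sites ranked on all 4 S. pombe libraries another pair was compared in SPBC8D2.18c and the log2 change was 0.25, against 2.41 for the pair above.

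The share of ribosomal protein genes past 2-fold toward the distal site was near that of all genes. The gene rpl902 held 634 reads at its site 41 nt past the stop codon and 1590 at its site 205 nt past it in minimal medium, against 1205 and 583 in rich medium, a log2 change of 2.37 and distal shares of 71.5% and 32.6%. Of 58 ribosomal protein genes compared, 8 moved at least 2-fold toward the distal site (13.8%) and 0 toward the proximal site, beside 13.2% and 5.39% of all genes. A change above 0 was found in 48 of them (82.8%), beside 63.3% of all genes, with a median of 0.41 beside 0.24. The gene rps1501 held 425 proximal and 1345 distal reads in minimal medium, against 1140 and 1652 in rich medium (1.12). Without the ribosomal protein genes the pairs past the stop codon had a median of 0.24.

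The other genes named for a distal shift had fewer reads. The uncharacterized gene SPBC19C7.04c had a distal share of 59.1% in minimal medium and 22.3% in rich medium, and rnc1, for an RNA-binding protein, 50.4% and 19.9%. In gpi17, of glycosylphosphatidylinositol anchor synthesis, mpp10, of the U3 small nucleolar ribonucleoprotein, and urb1, of ribosome biogenesis, the proximal site lay in a coding exon, and it held 3, 4 and 13 reads in minimal medium, against 23, 23 and 46 in rich medium. The genes stg1, for an actin-modulating protein, and SPAC1071.09c, for a DnaJ protein, had distal shares of 95.5% and 91.2% in minimal medium, against 85.2% and 72.6% in rich medium. With positions joined within 48 nt the log2 change of SPAC1071.09c was 0.93, against 1.93, and with sites ranked on all 4 S. pombe libraries that of stg1 was 1.01, against 1.80. In rps902 the share was 33.3% in minimal medium and 12.9% in rich medium. Joining positions within 12 nt picked other sites in mpp10 and rps902 and turned the sign of their log2 changes, to -0.21 and -0.54.

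The largest shift toward a proximal site was in mamRNA, a noncoding RNA known to bind the meiotic regulators Mmi1 and Mei2. Its sites 736 and 835 nt from the gene start held 193 and 97 reads in minimal medium, against 46 and 182 in rich medium, distal shares of 33.4% and 79.8%. The annotation lists overlapping transcripts under this symbol, and the pair used here belongs to the longer one. The sign of its log2 change of -2.95 turned to 3.34 when positions were joined within 12 nt and to 0.41 when sites were ranked on all 4 S. pombe libraries.

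Sites of the coding genes that moved proximally lay 53 to 1594 nt apart. In nrm1, for a corepressor of cell cycle transcription, the sites 224 and 976 nt past the stop codon held 90 and 77 reads in minimal medium, against 79 and 317 in rich medium, distal shares of 46.1% and 80.1% (log2 change -2.21). The genes trm44, for a tRNA methyltransferase, and SPAC25G10.01, with sites 366 and 1007 nt apart, had distal shares of 38.1% and 19.3% in minimal medium, against 69.5% and 45.0% in rich medium. In osh2, for a sterol transfer protein, rad57, for a recombination mediator, and rlp7, of ribosome biogenesis, the proximal site lay upstream of the stop codon. The osh2 site in a coding exon held 158 reads in minimal medium and 113 in rich medium, against 5 and 23 at the distal site. With all 4 S. pombe libraries used for ranking, the change in osh2 was -0.48, with the rich library thinned the change in rad57 was -0.07, and with reads past the stop codon only the change in rlp7 was 0.74.

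The last of the 20 named genes had distal shares near an end of the scale in minimal medium. Distal shares were 91.3% in minimal medium and 97.0% in rich medium in scs2, 92.0% and 98.1% in pim1, and 4.55% and 18.5% in SPAC11D3.19. Of the 20 genes, 13 had both sites past the stop codon, and only in pim1 did the counting intervals of both media overlap. The genes were picked for the largest changes in these same reads, so separated intervals follow largely from the choice. With sites required to hold at least 10% of reads, gpi17, mpp10, stg1, osh2, rad57, pim1, rlp7 and scs2 had no compared pair. With sites ranked on all 4 S. pombe libraries, mpp10, pim1, rlp7 and scs2 had none. The intervals show counting precision within these libraries, not the spread between cultures.

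**Figure D5:**
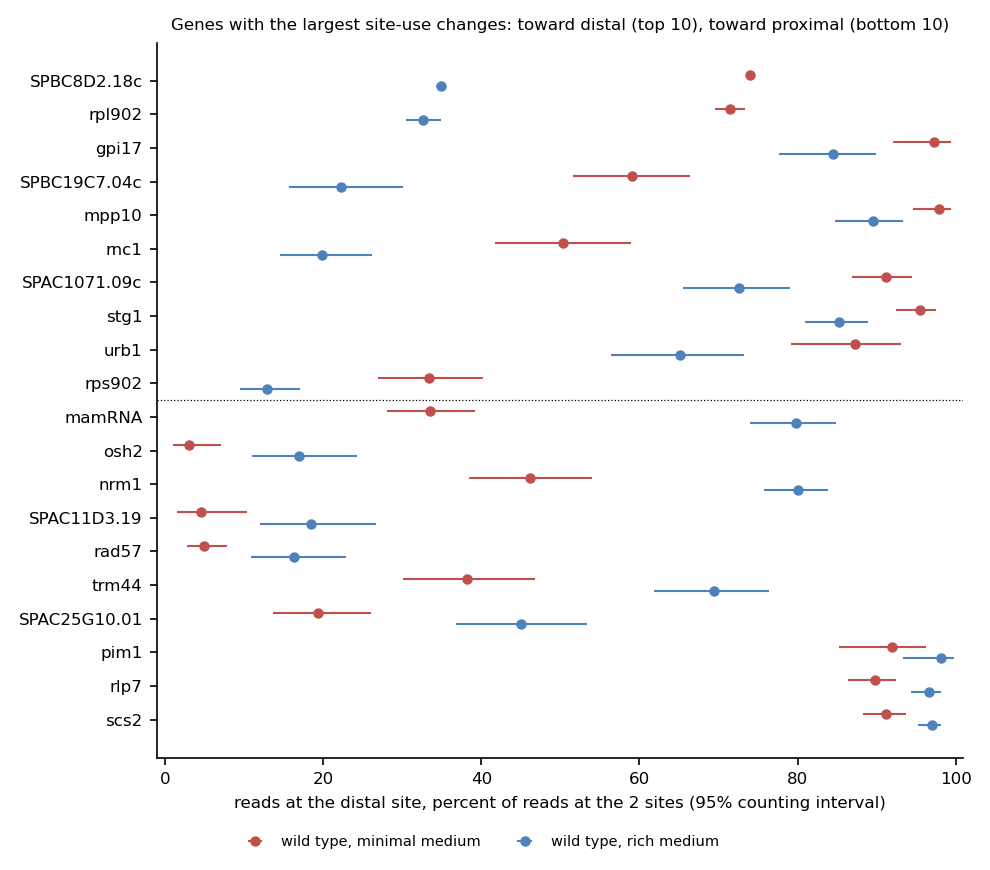
Distal reads as a percent of the reads at both sites (horizontal) for the 10 genes with the largest changes toward the distal site and the 10 with the largest toward the proximal site, in minimal medium (red, above) and rich medium (blue, below), with 95% Clopper-Pearson intervals as bars. SPBC8D2.18c and rpl902 have distal shares of 74.0% and 71.5% in minimal medium, against 34.9% and 32.6% in rich medium.

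Counts of site changes varied among the gene lists, beside 13.2% of all genes past 2-fold toward the distal and 5.39% toward the proximal site. Of 9 sulfur genes with compared sites, 4 moved at least 2-fold toward the distal site: cys2, met9, sul1 and cys12, with log2 changes of 1.22, 1.20, 1.18 and 1.17. Of 7 purine genes 3 did, ade2, ade10 and ade7, and ade2 had a distal share of 63.8% in minimal medium and 40.2% in rich medium. Among 11 core stress genes 4 did, among them ctt1, for catalase, with shares of 70.6% in minimal medium and 43.3% in rich medium. None of the genes of these 3 lists moved 2-fold toward the proximal site. Of 22 ribosome biogenesis genes 1 moved toward the distal and 5 toward the proximal site (22.7%), among them nhp2, for a subunit of the box H/ACA complex, with distal shares of 31.7% in minimal medium and 51.0% in rich medium. Of 13 cleavage and polyadenylation genes 1 moved toward the distal and 2 toward the proximal site, and pab2, for a poly(A)-binding protein, had distal shares of 36.5% in minimal medium and 55.6% in rich medium. In 15 ergosterol, 12 TCA cycle, 7 aromatic, 5 histidine and 5 arginine genes 0 passed 2-fold in either direction. Over 1826 genes the change in reads and the change in site use correlated at r = -0.064 across genes.

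The 5 largest displacements of the read-weighted 3′ end in each direction reached far past the stop codon. In SPCC1672.01, for histidinol-phosphatase, it lay 1281 nt beyond the stop codon for minimal medium and 1024 nt for rich medium, a difference of 257.5 nt. The exocyst gene sec3 differed by 134.3 nt, ryh1, for a Rab GTPase, by 129.7 nt, rnc1 by 123.9 nt and gos1, for a SNARE protein, by 110.7 nt. Closer in minimal medium was atg43, for a mitophagy receptor, at 822.6 nt, against 1620 nt in rich medium (-796.9 nt). The genes str2, nrm1 and cca1 followed with differences of -548.0, -246.4 and -246.0 nt, and in SPBC1539.02 the end lay 1590 nt past the stop codon in minimal medium, against 1790 nt in rich medium.

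The number of sites per gene did not separate the media. With each gene thinned to 50 reads, 78.0% of 2944 genes had at least 2 sites in minimal medium (95% Wilson interval 76.4% to 79.4%) and 78.8% in rich medium (77.3% to 80.2%), so that the intervals overlapped.

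Sequence elements at the sites were described with AATAAA, the canonical poly(A) signal, searched 10 to 35 nt upstream on the transcribed strand, and GTA and TAG searched within 30 nt downstream, where overlaps between motifs were allowed. Of the most used sites of 3195 coding genes, 17.4% had AATAAA, 53.9% had GTA and 40.5% had TAG. At positions 200 nt downstream of them the shares were 3.85%, 38.9% and 34.4%, and 200 nt upstream 1.47%, 28.5% and 26.3%. Among the 231 pairs past the stop codon that moved toward the distal site in minimal medium, 6.93% of the proximal and 18.2% of the distal sites had AATAAA. Among the 78 pairs that moved toward the proximal site these shares were 12.8% and 17.9%, and among the other 1517 pairs 11.9% and 16.0%. GTA stood downstream of 48.1% of the proximal sites of pairs that moved distally, 42.3% of those of pairs that moved proximally and 40.9% of those of the others. The match of letters is a description of the sites and no test was made.

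A measured spread between libraries of 1 medium exists only for the S. cerevisiae wild type of the series, with 2 libraries per medium. Under the same rules 0.0913% of genes differed at least 2-fold in reads between the minimal medium libraries and 1.06% between the rich medium libraries, against 4.86% between the S. pombe media. In site use the shares were 7.72% and 12.7%, against 18.6% between the S. pombe media. The distal over proximal ratio was higher in replicate 2 than in replicate 1 in 48.1% of genes in minimal medium and 47.7% in rich medium, against 63.3% higher in minimal than in rich medium in S. pombe. The S. cerevisiae libraries are another species and hold other numbers of reads, so these shares are a scale and not the spread of S. pombe.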

How the data were processed

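The libraries amplified the 3′ ends of poly(A)+ RNA from total RNA, per the labels' protocols. The submitters' processing notes name Bowtie2 (version not given in the sources used here) and the assembly ASM294v2. What the authors deposited is an unnormalized count of reads at each stranded position, without a header. Coordinates were checked against RefSeq ASM294v3: where a position held 20 reads or more, the following base was A at 0.184% to 0.727% of positions, and the base 8 nt downstream was A at 29.2% to 30.6%. The position itself was A at 87.1% to 90.5%. Whether an A there comes from the genome or from the tail cannot be told, so the exact cleavage base is not fixed. No genome of version 2 was used.

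A coding or structured RNA gene took the reads on its strand between its start codon and 500 nt past its annotated end, and long noncoding genes took the rest. Log2 ratios took reads plus 1 over TMM-scaled totals of the reads assigned to genes (factors 1.03 for minimal and 0.971 for rich medium, the same as from edgeR 4.0.16). Genes needed at least 100 reads summed over both libraries. Site changes took distal plus 1 over proximal plus 1 reads. Python 3.11.15, numpy 2.4.6 and scipy 1.17.1 were used, and scripts were tested on simulated data.

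Named genes were the 10 largest rises and falls in reads (mean of at least 50 CPM), the 10 largest site changes each way (at least 100 reads over both sites in each library), 4 members per list with the largest ratio and 5 end displacements each way (at least 100 reads past the stop codon in each library). Windows were fixed for the 4 leading site-use genes each way, and those of 4 genes are shown. Of the 32 gene lists, those for vitamin uptake (2 compared, median 0.14), thiamine (3, -0.16), histones (10, 0.23), ergosterol (20, 0.07), fatty acids and phospholipids (9, 0.00), RNA polymerase II and termination (16, 0.04), mating (5, 0.20), transport (8, 0.32) and strain markers (4, -0.36) have their medians of gene reads given here only, and 12 listed names matched no gene. The genes and lists were chosen with earlier results of these data known. The fixed marker lists had map3 and mam2 under each other's mating type; their roles are given here as known. The ribosomal protein list was taken by symbol, and 3 genes of RNase P or MRP that it caught were removed after their values had been seen.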

Additional observations from a re-analysis of the deposited data

Results flagged for a closer look

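Reads on 1 sequence of the deposited counts were not used in any comparison and were more frequent in minimal medium. The sequence is not among the chromosomes of the reference used, and whether it is nuclear was not examined. It held 1527 CPM of the whole library in minimal medium (4126 reads) and 1113 CPM in rich medium (4060 reads), and the counting intervals of both media did not overlap. The position with the largest difference held 551 CPM in minimal medium (1490 reads) and 242 CPM in rich medium (884 reads), and the position with the most reads held 678 and 667 CPM in the same order. The annotation used here does not cover this sequence, so the transcripts behind the reads were not named.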

How the results depend on the processing

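No paired analysis was possible because each S. pombe medium has 1 library. The counts of genes with higher and lower reads, though not the adh1AS ratio (5.62 with a 250 nt extension), were within 1.5 times of 102 and 67 under total-read scaling, pseudocount 5, a 250 nt extension and a thinned rich library. Requiring 50 reads in each library left 32 lower genes, applying no filter on low counts gave 1155 higher and 1004 lower, since genes with a handful of reads pass 2-fold easily, and 3-fold left 33 and 17. Total-read scaling left 1 ribosomal protein gene and 0 branched-chain genes lower and gave 2 cleavage and polyadenylation genes and 1 chaperone gene higher. Moves toward the distal site stayed within 1.5 times of 302 under every alternative run, and pseudocount 5 left 79 toward the proximal site. The median change of pairs over 400 nt apart kept its sign in every alternative and was -0.18 with positions joined within 12 nt. With all reads of the gene the median displacement of the 3′ end was 5.07 nt. The share of genes with at least 2 sites was 90.6% in minimal and 90.8% in rich medium at 20 reads per gene, 68.0% and 67.2% at 200 reads, 83.4% and 83.5% joined within 12 nt, and 70.4% and 70.9% joined within 48 nt. Between the S. cerevisiae minimal medium libraries 0% of genes differed 2-fold in reads with 50 reads required in each. Joining within 12 nt reversed mpp10 (-0.21), rps902 (-0.54) and mamRNA (3.34), ranking on all 4 S. pombe libraries reversed mamRNA (0.41), and using reads past the stop codon only reversed rlp7 (0.74) and left gpi17 at 1.34, as ranking on all 4 libraries did, which also left SPAC1071.09c at 1.20; the cause was not tested beyond the different sites picked. Depth limits genes under 100 reads, such as several hexose and iron transporters, and 1 library per medium limits every comparison.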
